A study of Saccharomyces cerevisiae with 18 samples.

Results

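The comparison described here sets Dib1-depleted yeast cells after 8 h in glucose medium (YPD) against the same strain after 4 h in glucose medium. Both groups are in the same sugar, so no difference in sugar lies between them, as it does in a comparison with galactose. They differ in the time spent in glucose, and slow responses to that sugar can still be part of the difference. It covers 6 of the 18 libraries of the series (3 at 8 h and 3 at 4 h), 6447 of 6596 listed genes, and the introns of 250 of 284 listed host genes. The remaining genes had no read in the strain, and the remaining introns had too few reads to test.

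Both groups carry, per the labels, PGAL1-YPR082C in a BY4742 background with his3Δ1, leu2Δ0, met15Δ0 and ura3Δ0, an intact LYS2 and mating type alpha. DIB1 (YPR082C) is thus read from the GAL1 promoter, which galactose switches on and glucose switches off, and growth in glucose is the means of depletion. The protein itself was not measured. Libraries of the same strain from 6 h in galactose medium (YPGal) are given where a galactose level helps to place a value, and a strain with SNU114 under the same promoter serves as the other depletion. The libraries were made from polyadenylated RNA with a stranded kit. No label states that the 3 replicates of a group came from separate cultures. In every group the description of replicate 3 has another form than those of replicates 1 and 2 and ends in what reads as a date. This ending is not the same for replicate 3 at 8 h and at 4 h, and what it marks is not stated. Without replicate 3 of both groups, 137 introns rose in ratio, and 232 genes rose and 117 fell. P-values therefore measure the spread between these libraries, which may be technical. Time in glucose and progress of depletion run together from 4 h to 8 h and cannot be told apart.

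Dib1 is a small protein of the U5 part of the tri-snRNP, the particle that brings U4, U5 and U6 RNA to a pre-mRNA whose 5′ splice site and branch site have already been bound by U1 and U2. It leaves when the spliceosome is activated. Few yeast genes have introns, but they include most ribosomal protein genes, so intron-containing transcripts are a large part of the mRNA a growing cell makes. When splicing slows, reads over introns accumulate relative to reads over the whole gene unless the unspliced RNA is destroyed.

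DIB1 mRNA had 265, 246 and 283 normalised read counts in the 8 h libraries, against 244, 249 and 263 in the 4 h libraries. The groups overlapped, and the log2 difference was 0.07 ± 0.10 (SE, limma adjusted p = 0.674). DIB1 mRNA was low in both groups: the galactose libraries had 121968, 127214 and 117804 counts. In the Snu114 strain, where DIB1 is not the driven gene, the 8 h and 4 h libraries had 971 to 1168 counts. The glucose groups lay below that range and the galactose libraries far above it. GAL1, the gene of the same promoter at its own locus, had 240.1, 255 and 268 normalised counts at 8 h, against 235, 179 and 287 at 4 h. SNU114, PRP6 and PRP31, which code for other tri-snRNP proteins, did not pass the threshold, with log2 differences of 0.11 ± 0.13, -0.02 ± 0.10 and -0.49 ± 0.15 (adjusted p = 0.615, 0.906 and 0.0588). With the replicate number as a block, PRP31 had a limma adjusted p of 0.0239.

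The 6 libraries held 17065989 to 58615022 gene reads. The deepest was 8 h replicate 1, and the others held at most 28009103. Against the label of mating type alpha, the 6 libraries held 2859 to 4822 normalised counts of the a-factor gene MFA1 and 9.60 to 32.0 of the alpha-factor gene MF(ALPHA)1. In the 8 h and 4 h libraries of the Snu114 strain these were 12.8 to 20.1 and 77736 to 106892. The a-cell receptor gene STE2 had 16421 to 22609 counts in the 6 Dib1 libraries. The alpha-cell gene SAG1 was less clear-cut, with 1222 to 3046 counts there and 7852 to 16752 in the 8 h and 4 h Snu114 libraries. A single 4 h library stood apart in part of its introns: 4 h replicate 1 had the highest intron ratio of the 3 libraries in 67 of 89 ribosomal protein hosts. In other hosts it was the highest in 58 and the lowest in 68 of 161.

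Sequences of introns among those whose ratio of intron to gene reads rose most, and of introns that did not pass, are printed to show the signals they carry. They are read 5′ to 3′ on the strand of the gene from the R64 assembly, with the 6 bases of the 5′ splice site, the branch site heptamer TACTAAC and the 3 bases of the 3′ splice site in capitals. The heptamer was searched on the sense strand in the last 200 bases of each intron, and 82.5% of the 280 nuclear introns of the listed hosts held it. The 5′ splice site was GTATGT in 73.2% of them.
MMS2 (a partner of the ubiquitin-conjugating enzyme Ubc13), chrVII:346809-346893, minus strand: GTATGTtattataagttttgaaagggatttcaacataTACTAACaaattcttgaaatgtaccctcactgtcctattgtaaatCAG
GIM5 (a prefoldin subunit), chrXIII:82291-82373, plus strand: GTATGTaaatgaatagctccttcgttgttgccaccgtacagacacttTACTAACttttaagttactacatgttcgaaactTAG
PHO85 (a cyclin-dependent kinase), chrXVI:492919-493020, minus strand: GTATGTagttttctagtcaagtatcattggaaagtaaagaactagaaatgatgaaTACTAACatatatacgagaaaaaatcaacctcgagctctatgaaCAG
REC107 (a meiotic recombination protein), chrX:469184-469263, minus strand: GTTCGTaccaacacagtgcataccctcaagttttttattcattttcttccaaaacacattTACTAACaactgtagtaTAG
IWR1 (an import factor of RNA polymerase II), chrIV:254975-255044, minus strand: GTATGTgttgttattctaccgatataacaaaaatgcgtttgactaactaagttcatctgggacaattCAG
ECM9 (an open reading frame of uncharacterised role), chrXI:447707-447810, minus strand: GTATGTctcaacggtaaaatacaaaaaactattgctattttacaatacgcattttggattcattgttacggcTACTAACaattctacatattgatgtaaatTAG
The first 3 introns rose by 1.61 to 1.78 on the log2 scale of the ratio, and the last 3 lay between -0.01 and 0.11. REC107 departs from the common 5′ splice site and IWR1 has no TACTAAC, while ECM9, chosen after its values were seen, has both common signals.

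Intron reads made up 2.62%, 2.53% and 2.57% of gene reads in the 8 h libraries, against 1.97%, 1.602% and 1.74% in the 4 h libraries. The means were 2.57% ± 0.0470 at 8 h and 1.77% ± 0.185 at 4 h (SD, n = 3 each), with no overlap between the groups. The difference of 0.804 percentage points had p = 0.1 in a two-sided exact permutation test, the smallest p that 3 libraries against 3 allow. Exact binomial 95% intervals of single libraries were at most as wide as 2.56% to 2.58% in 8 h replicate 3 and cover counting error alone. Without the hosts that are ribosomal protein genes the share was 0.634%, 0.603% and 0.676% at 8 h, against 0.346%, 0.328% and 0.350% at 4 h, which is 1.87 times as high at 8 h. The share from ribosomal protein hosts was 1.99%, 1.92% and 1.90% at 8 h, against 1.62%, 1.27% and 1.39% at 4 h, or 1.36 times as high. Ribosomal protein hosts gave 73.7% to 76.1% of intron reads at 8 h and 79.5% to 82.4% at 4 h.

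Per host, the intron ratio is the intron reads of a host as a percentage of its gene reads. Across the 250 introns the median ratio was 34.5%, 34.6% and 34.8% in the 8 h libraries, against 20.05%, 17.4% and 17.97% in the 4 h libraries. The galactose libraries stood at 5.25%, 5.10% and 5.17%. The ratio rose in 177 introns and fell in 0 (limma-trend on the log2 ratio, Benjamini-Hochberg adjusted p under 0.05), which is 70.8% of those tested, and 181 introns had an unadjusted p under 0.05. With edgeR's quasi-likelihood test, 172 introns rose. The median log2 difference was 0.87. In 185 introns, 74% of those tested, every 8 h library was above every 4 h library, and in 1 the groups were separate in the other direction. That intron, in YOR318C, did not pass (log2 difference -0.17, adjusted p = 0.274). Gene reads can include intron reads, and in each library 4 or 5 hosts had intron reads above their gene reads. The ratio is therefore not a fraction of unspliced molecules.

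**Figure D1:**
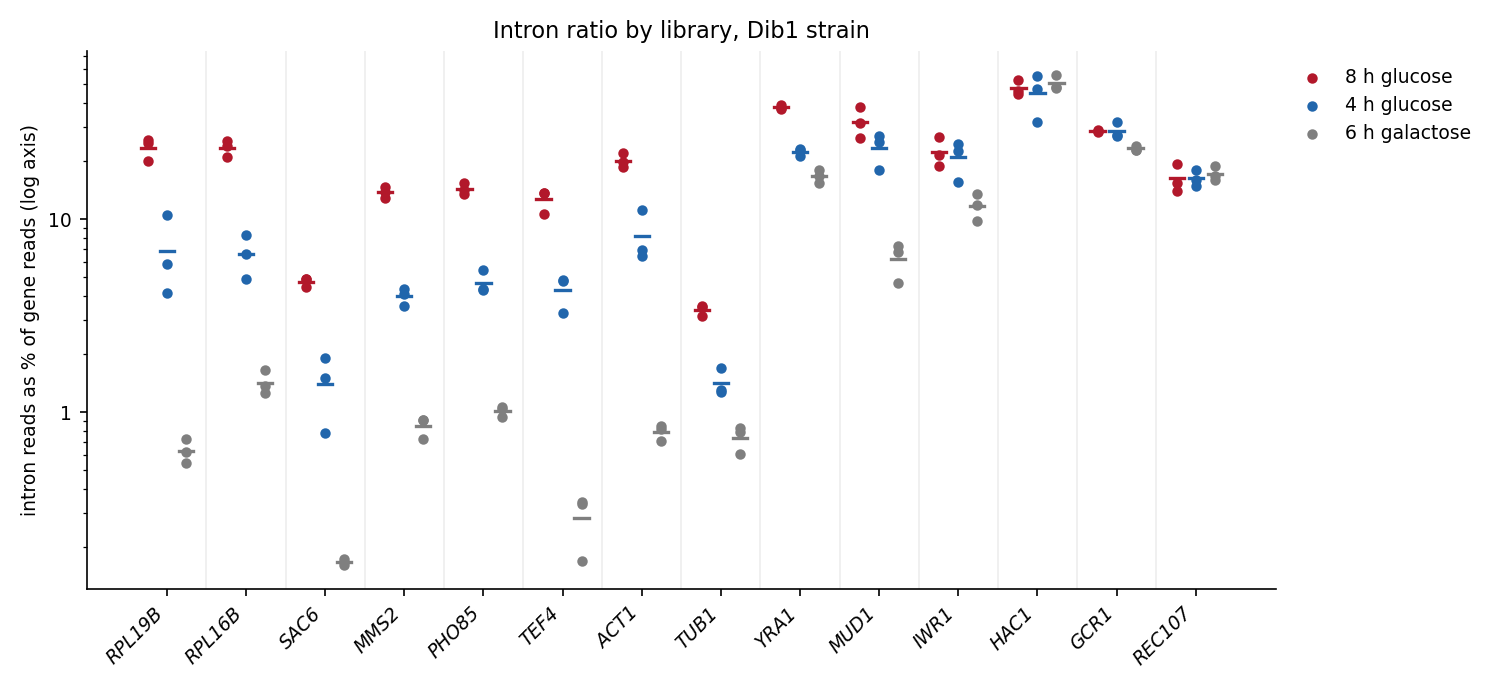
Intron reads as a percentage of gene reads (log axis) for 14 introns in the 3 libraries of each Dib1 group, with 8 h left of 4 h and galactose last; short lines are group means. The ACT1 libraries at 8 h lie between 18.5% and 21.95%, all above those at 4 h, while the REC107 groups lie over each other.

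The 10 largest rises of the ratio came from hosts of varied function. Of these, 4 were ribosomal protein genes, and the others belonged to actin bundling, ubiquitin conjugation, mannose metabolism, coatomer vesicles and protein folding. RPL19B, for a protein of the large ribosomal subunit, had a ratio of 25.7%, 24.7% and 19.9% at 8 h, against 10.5%, 5.83% and 4.15% at 4 h. Its log2 difference was 1.88 ± 0.32 (adjusted p = 0.00083), with no overlap. RPL16B, also of the large subunit, had 23.8%, 25.5% and 21.05% at 8 h, against 4.87%, 8.28% and 6.56% at 4 h, a log2 difference of 1.87 ± 0.23 (adjusted p = 0.00017). All 8 h libraries of both hosts were above all 4 h libraries. RPL33A had 37.8%, 37.8% and 19.9% at 8 h, against 11.1%, 12.6% and 5.30% at 4 h (log2 difference 1.75 ± 0.42, adjusted p = 0.00469), and replicate 3 was the lowest in both groups. RPS10B, for a protein of the small subunit, had 31.4%, 29.7% and 25.2% at 8 h, against 8.07%, 9.59% and 8.23% at 4 h, with a log2 difference of 1.73 ± 0.17 (adjusted p = 0.00012).

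Among the other hosts, SAC6, for the actin-bundling protein fimbrin, had a ratio of 4.89%, 4.89% and 4.43% at 8 h, against 0.775%, 1.90% and 1.497% at 4 h, a log2 difference of 1.86 ± 0.35 (adjusted p = 0.00141). MMS2 had 13.9%, 14.6% and 12.8% at 8 h, against 3.53%, 4.10% and 4.34% at 4 h (log2 difference 1.78 ± 0.21, adjusted p = 0.00014). The 3 libraries within each of these groups lay close together, and the groups were far apart. SEC27, the beta′ subunit of the coatomer coat of Golgi vesicles, had 4.05%, 3.63% and 2.64% at 8 h, against 0.816%, 1.54% and 0.751% at 4 h (log2 difference 1.78 ± 0.36, adjusted p = 0.00229). GIM5 had 11.3%, 10.2% and 12.9% at 8 h, against 1.64%, 4.30% and 5.33% at 4 h (log2 difference 1.76 ± 0.39, adjusted p = 0.00314). UBC5, a ubiquitin-conjugating enzyme gene, showed the largest estimate, 2.13 ± 0.83 (adjusted p = 0.0402), and PMI40, for mannose-6-phosphate isomerase, 1.83 ± 0.69 (adjusted p = 0.0360). In both, 4 h replicate 1 was the lowest library. UBC5 had 19.9%, 20% and 28.1% at 8 h, against 0.610%, 8.71% and 16.7% at 4 h, and PMI40 had 3.16%, 2.42% and 3.57% at 8 h, against 0.205%, 1.503% and 1.85% at 4 h. The log2 difference without 4 h replicate 1 was 0.89 for UBC5 (adjusted p = 0.0156) and 0.85 for PMI40 (adjusted p = 0.0223). Both missed the threshold when any single 8 h library was left out.

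Introns of well-studied hosts showed a range of responses. ACT1, the actin gene, had a ratio of 19.7%, 18.5% and 21.95% at 8 h, against 11.1%, 6.41% and 6.92% at 4 h (log2 difference 1.34 ± 0.24, adjusted p = 0.00109). TEF4, for a translation elongation factor subunit, had 13.6%, 13.6% and 10.7% at 8 h, against 4.77%, 4.82% and 3.27% at 4 h (1.57 ± 0.32, adjusted p = 0.00225). Both had no overlap between the groups. The alpha-tubulin genes TUB1 and TUB3 rose by 1.26 ± 0.26 and 0.89 ± 0.25 (adjusted p = 0.00229 and 0.00989). TUB1 stood at 3.13%, 3.53% and 3.52% at 8 h, against 1.30%, 1.69% and 1.27% at 4 h. YRA1, an mRNA export factor that limits its own level through its long, slowly spliced intron, had 37.7%, 38.9% and 37.2% at 8 h, against 22.8%, 23.1% and 21.1% at 4 h (0.76 ± 0.13, adjusted p = 0.00071). The YRA1 ratio varied little within either group.

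MUD1, which codes for a U1 snRNP protein, and DBP2, which codes for an RNA helicase with a long, late-placed intron, did not pass. MUD1 had 31.4%, 26.3% and 38.2% at 8 h, against 27.0%, 17.97% and 24.98% at 4 h (0.46 ± 0.23, adjusted p = 0.0943). DBP2 had 10.8%, 10.2% and 13.0% at 8 h, against 14.4%, 5.03% and 5.94% at 4 h (0.58 ± 0.35, adjusted p = 0.162). In DBP2 the overlap came from 4 h replicate 1 alone. Without that library both passed, at 1.04 for DBP2 (adjusted p = 0.00099) and 0.57 for MUD1 (adjusted p = 0.0462).

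The 3 introns nearest no change among those with at least 100 reads were GCR1, REC107 and IWR1. GCR1, for a transcription factor of glycolytic genes, had 28.4%, 28.8% and 28.9% at 8 h, against 31.9%, 27.0% and 27.4% at 4 h. REC107 had 15.5%, 14.0% and 19.3% at 8 h, against 14.9%, 15.9% and 18.1% at 4 h. IWR1 had 21.6%, 18.8% and 26.7% at 8 h, against 24.4%, 15.7% and 22.6% at 4 h. All 3 pairs of groups overlapped, with log2 differences of -0.00 ± 0.12, -0.01 ± 0.17 and 0.11 ± 0.22. The galactose libraries of REC107 stood at 16.8%, 15.9% and 18.9%, within the range of the glucose groups, while those of IWR1 were lower, at 11.9%, 9.75% and 13.5%.

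HAC1, named after its values were seen, is given apart because its intron is not removed by the spliceosome. It codes for the transcription factor of the unfolded protein response, and its intron is cut out by the nuclease Ire1 and the exons joined by the tRNA ligase. The ends of this intron carry neither of the signals above. The first and last 30 bases of the intron, at chrVI:75840-76091 on the plus strand, are in lower case throughout because no spliceosomal signal is marked.
HAC1 start: ccgtgattacgatgaccaggaaactacagt
HAC1 end: aagaaatggacggcttgcttgtactgtccg
The HAC1 ratio was 46.0%, 44.7% and 52.9% at 8 h, against 31.9%, 47.5% and 55.4% at 4 h and 48.3%, 47.7% and 55.7% in galactose. The groups overlapped (log2 difference 0.13 ± 0.20, adjusted p = 0.561), and 4 h replicate 1 was the lowest library. HAC1 also belongs to the 13 introns at 30% or more in galactose, of which 1 rose. Whether its small difference goes with its route of removal or with its galactose level was not tested. HAC1 gene reads rose, with 29348, 34115 and 32161 normalised counts at 8 h, against 7470.4, 16362 and 18473 at 4 h (log2 difference 1.28 ± 0.33, adjusted p = 0.0306).

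Introns were then read by the class of their host and by their signals. The rise took in 78 of 89 ribosomal protein hosts, with a median log2 difference of 1.08, and 99 of 161 other hosts, with a median of 0.76. The medians of the hosts' mean ratios were 51.0% at 8 h and 24.6% at 4 h for ribosomal protein hosts, and 24.6% at 8 h and 15.8% at 4 h for the others. Among large subunit hosts 45 of 52 introns rose (median 1.08), and among small subunit hosts 32 of 36 (median 1.09). Of 10 hosts with a pair of annotated introns, counted by the authors as 1 feature, 7 rose.

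Hosts with 1 annotated intron could be sorted by sequence. Of 179 introns with GTATGT, 137 rose (median 0.96), and of 58 with another 5′ splice site, 33 rose (median 0.69). Outside the ribosomal protein genes the counts were 79 of 115 (median 0.86) and 15 of 35 (median 0.52). The 4 introns with GCATGT, in COX5B, YHL050C, YJR079W and YML133C, and the 2 with GTTCGT, in REC107 and YPL109C, all missed the threshold. COX5B, a subunit gene of cytochrome c oxidase, came closest, at 0.55 (adjusted p = 0.0844). Outside the ribosomal protein genes, TACTAAC was present in 116 introns, of which 78 rose (median 0.82), and absent from 34, of which 16 rose (median 0.56). Of introns of up to 200 bases in these hosts 78 of 125 rose (median 0.78), and of longer ones 16 of 25 (median 0.76). HAC1, whose intron is not removed by the spliceosome, is counted here and did not pass. It is among the introns with another 5′ splice site, those without TACTAAC and the longer ones.

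These signals go together with the level that an intron has in galactose. Outside the ribosomal protein genes, introns with GTATGT had a median galactose ratio of 3.60%, and those with another 5′ splice site, HAC1 included, 10.4%. Among introns of these hosts below 10% in galactose, 69 of 90 with GTATGT rose (median 0.96), as did 9 of 16 with another site (median 0.76). The part of the galactose level in the difference between sites was not tested further.

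The galactose ratio, which comes from libraries outside the comparison, ran against the size of the rise. Of 46 introns below 2% in galactose, 43 rose, with a median log2 difference of 1.34. Of 126 between 2% and 10%, 94 rose (median 0.91), and of 65 between 10% and 30%, 39 rose (median 0.62). Of 13 introns at 30% or more, 1 rose, and the median was 0.13. That intron, in YPR170W-B, had more intron than gene reads. Spearman's rho between the galactose ratio and the log2 difference was -0.73 over 87 ribosomal protein introns and -0.62 over 150 others, as a description across introns that share the same libraries and host gene depth. With gene reads minus intron reads as the denominator, which has no upper limit, the medians were 1.49, 1.44, 1.17 and 0.37 from the lowest to the highest class. Hosts with more intron than gene reads in any library of the strain drop out of these medians, so they cover fewer introns.

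Functional groups of hosts were listed with earlier results known, and the share of 70.8% over all introns is the measure for their counts. All 8 measured introns of actin cytoskeleton genes rose (median 1.26). Their median galactose ratio was 1.31%, and of all introns below 2% in galactose 43 of 46 rose. Introns of the secretory pathway rose in 14 of 20 hosts (median 1.09), those that host a small nucleolar RNA in 7 of 8 (median 1.14), and those of tubulin and tubulin-folding genes in 4 of 5 (median 0.89). Splicing and RNA processing hosts rose in 10 of 15 (median 0.82), with LSM2, for a ring protein of U6 RNA, at 49.0%, 47.2% and 42.0% at 8 h, against 18.1%, 24.2% and 17.8% at 4 h. Ubiquitin and proteasome hosts rose in 6 of 8 (median 0.75) and mitochondrial hosts in 4 of 5 (median 0.59). Meiotic hosts rose in 0 of 7 (median 0.45), among them HOP2 at 0.61 (adjusted p = 0.069) and REC114 at 1.29 (adjusted p = 0.151). Several of these had few reads, with a mean of 11.6 per library in REC114, so a rise may not have been detectable at this depth. The median galactose ratio of the meiotic hosts was 16.4%. Between 10% and 30% in galactose, 15 of 38 introns outside the ribosomal protein genes rose. The part of the galactose level in these list counts was not tested.

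The intron level, the intron reads on the scale of the gene table, does not depend on the host's gene reads. It rose in 119 introns and fell in 0, 46.9% of the 254 tested with limma, with a median log2 difference of 0.69. Without adjustment 153 passed. By edgeR 119 rose and 1 fell, and by DESeq2 135 rose and 3 fell. Both ratio and level rose in 107 introns, and the ratio alone in 70, of which 41 were ribosomal protein hosts. The largest rises were UBC5 at 2.84 ± 1.02, SAC6 at 2.18 ± 0.31, YRA1 at 1.89 ± 0.20, PBA1, a proteasome assembly gene, at 1.85 ± 0.25, and SEC27 at 1.79 ± 0.34 (adjusted p = 0.0381, 0.00077, 0.00015, 0.00077 and 0.00279). UBC5 had 1 intron read in 4 h replicate 1, and without that library its level rose by 1.20 (adjusted p = 0.0227). Without any single 8 h library UBC5 missed the threshold. In YRA1 gene reads rose too, with 21398, 22157 and 20176 normalised counts at 8 h, against 8190.2, 11096 and 10185 at 4 h (log2 difference 1.12 ± 0.13, adjusted p = 0.00112). The level depends on the scale. On the intron table's own size factors, which set the typical intron to no change, 3 introns rose and 2 fell, with a median of 0.01. The authors' deposited intron table, on that scale, gives 9 introns higher (3.41%) and 17 lower (6.44%) at 8 h of 264. Leaving out 8 h replicate 1 left 58 rises, and leaving out 8 h replicate 2 left 68.

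Over all genes, 556 rose and 373 fell (limma-trend on log2 of the normalised count plus 1, Benjamini-Hochberg adjusted p under 0.05), which is 14.4% of 6447, with 8.62% higher and 5.79% lower at 8 h. Fitted with the replicate number as a block, 750 rose and 608 fell. The authors' deposited gene table gives 735 higher (11.4%) and 658 lower (10.2%). Without 8 h replicate 1 there were 233 rises and 114 falls, and without 8 h replicate 2 there were 244 and 113. Without 4 h replicate 1 the falls numbered 604, and without 8 h replicate 3 they numbered 240. Without 4 h replicate 3 there were 409 rises and 253 falls. Of the genes named by rule, 40 missed the threshold without 8 h replicate 1, and 37 without 8 h replicate 2. Those that missed it both times included BIM1, CIN2, CYC7, ESP1, FUS1, GAL4, HES1, HXT1, HXT5 and IZH4. They also included KAR2, KNH1, PHO12, PRP22, RPO31, STE5, SUS1, TIR4, UTP10 and UTP20. This is not a full list, so a gene left out of it is not thereby stable. CTT1 missed it without 8 h replicate 1 or 8 h replicate 3.

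**Figure D2:**
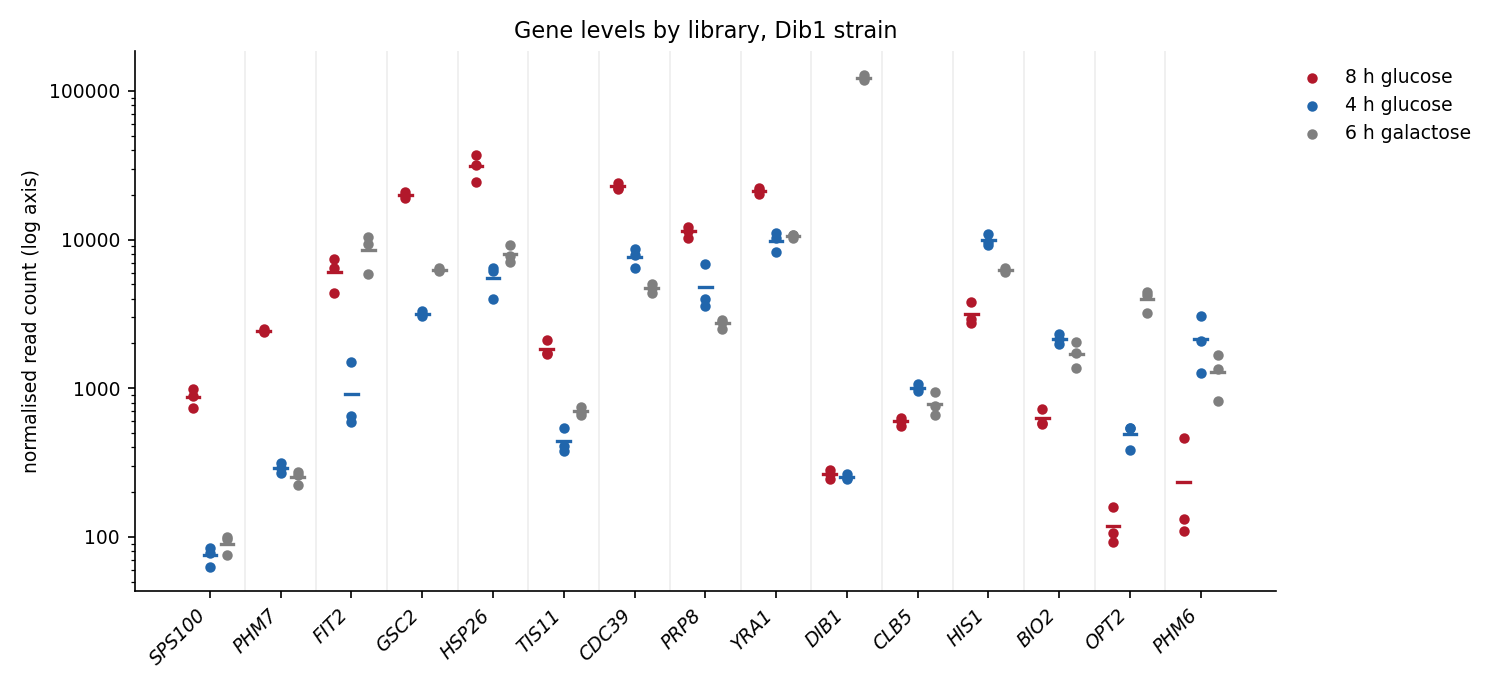
Normalised read counts (log axis) of 15 genes in the 3 libraries of each Dib1 group, with 8 h left of 4 h and galactose last; short lines are group means. GSC2 lies between 18913 and 20866 at 8 h, above all 4 h libraries, and DIB1 is alike at 8 h and 4 h and far higher in galactose.

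Genes of the general stress response and of iron uptake were prominent among those that rose. SPS100, for a spore wall protein, had 987, 888 and 737 normalised counts at 8 h, against 84.4, 78.3 and 63.0 at 4 h, an 11.6-fold higher mean (log2 difference 3.52 ± 0.20, adjusted p = 2.3e-05). PHM7 had 2383, 2417 and 2505 at 8 h, against 290.2, 316 and 268 at 4 h (3.06 ± 0.13, adjusted p = 3e-06). GSC2, a subunit of the glucan synthase of the cell wall, had 19854, 20866 and 18913 at 8 h, against 3058, 3293 and 3147 at 4 h (2.65 ± 0.10, adjusted p = 9.3e-07). The replicates of these 3 genes lay close together, and the groups were separate by a wide margin. HSP26, a small heat shock protein gene, had 31742, 24508 and 36968 at 8 h, against 6159.9, 6467 and 3955 at 4 h (2.50 ± 0.22, adjusted p = 0.00024). YBR056W-A, FMP45, YLR112W and DIA1 completed the 10 largest rises with FIT2 and TIS11, at 2.20 to 3.11 for these 4.

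The list of genes induced by environmental stress held 38 measured genes, of which 17 rose and 0 fell, with a median log2 difference of 0.81 against -0.0024 over all genes. Beside PHM7 and HSP26, DDR2 rose by 1.95 and HOR7 by 1.75, both small stress-induced genes. CTT1, the cytosolic catalase, had 5635, 4716 and 7226 counts at 8 h, against 2763, 2433 and 1001.4 at 4 h (1.61 ± 0.36, adjusted p = 0.0174). HSP12 rose by 1.31, and TSL1 and TPS2, of trehalose synthesis, by 1.32 and 0.81. The list gave 9 rises without 8 h replicate 1 and 10 without 8 h replicate 3. Of 25 heat shock and chaperone genes, 1 rose and 0 fell (median 0.14). That gene was KAR2, the chaperone of the endoplasmic reticulum, with 23801, 23576 and 18640.4 counts at 8 h, against 11569, 15089.7 and 14477 at 4 h (0.68 ± 0.16, adjusted p = 0.0206).

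Of 25 measured genes of the iron regulon, which the factors Aft1 and Aft2 switch on when iron is scarce, 15 rose and 0 fell (median 0.73). FIT2, a cell wall protein that holds siderophores, had 6443, 4402 and 7387 counts at 8 h, against 1501, 593 and 649.9 at 4 h (2.83 ± 0.36, adjusted p = 0.00138). TIS11, which degrades mRNAs of iron-using proteins, had 1689, 1722 and 2097 at 8 h, against 541, 408 and 375 at 4 h (2.06 ± 0.16, adjusted p = 0.00024). The siderophore transporters SIT1, ARN1, ENB1 and ARN2 rose by 1.88, 1.51, 1.37 and 1.12. The high-affinity uptake pair FET3 and FTR1 rose by 1.44 and 1.06, and the ferric reductases FRE2 and FRE3 by 1.07 and 1.15. Each list count without a single library stayed between 12 and 14 rises with 0 falls. FIT2 averaged more in galactose than at 8 h, as the plot of gene levels by library shows, so for this gene the 4 h libraries were the low ones. It was also higher at 8 h in the Snu114 strain, with 5028, 6516 and 6945 counts, against 1243, 846 and 874 at 4 h.

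Other lists had fewer calls, beside 8.62% of all genes that rose. Of 30 cell wall integrity genes, 8 rose and 1 fell (median 0.16). Beside GSC2 they included YPS1, a cell surface aspartyl protease (1.27), and PIR1 (0.99), and KNH1 fell by 0.98. The rises numbered 4 without 8 h replicate 1 or 8 h replicate 2. Of 28 genes under nitrogen catabolite repression, 7 rose and 0 fell (median 0.33), with DUR1,2, of urea breakdown, at 4584, 4351 and 6033 counts at 8 h, against 1635, 1541 and 1234 at 4 h (1.76 ± 0.20, adjusted p = 0.00096). The vacuolar proteases PRB1 and PEP4 on that list rose by 1.33 and 1.07. This list had 4 rises without 8 h replicate 1 or 8 h replicate 3. Of 30 peroxiredoxin and oxidoreductase genes, 4 rose and 0 fell (median 0.25), CTT1 among them, and 9 rose with the replicate number as a block. This list had 0 rises without 8 h replicate 1 and 1 without 8 h replicate 2, 8 h replicate 3 or 4 h replicate 3, and 7 without 4 h replicate 2.

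Genes for splicing factors did not move as a body. Over all genes 8.62% rose, the share to set beside the list counts here. Among 31 genes whose products belong to U5, the tri-snRNP or the Sm and Lsm rings, 3 rose and 0 fell (median -0.02). Of 30 for U1, U2 and commitment factors, 3 rose and 0 fell (median -0.01), and of 32 for the Prp19 complex, step factors and helicases, 2 rose and 0 fell (median -0.02). The last of these lists had 0 rises without any single 8 h library or without 4 h replicate 3, and 5 rises and 1 fall under the block. PRP8, the core protein of U5, had 11436, 12223 and 10318 counts at 8 h, against 6848, 3569 and 4011 at 4 h (1.29 ± 0.21, adjusted p = 0.00446). BRR2, the helicase that unwinds U4 from U6, had 5538, 6033 and 5513 at 8 h, against 3625, 2706 and 3199 at 4 h (0.85 ± 0.12, adjusted p = 0.00222). RSE1, of the U2 particle, had 6121, 6308 and 6199.9 at 8 h, against 3516, 3181 and 3465 at 4 h (0.88 ± 0.09, adjusted p = 0.00054). All 3 had no overlap between the groups. In RNA decay and surveillance, 5 of 43 genes rose and 0 fell (median 0.03), with 9 rises without 4 h replicate 1, 3 without 8 h replicate 1, and 8 rises and 1 fall under the block. CDC39, the scaffold of the Ccr4-Not complex, had 22018, 24154 and 22373 at 8 h, against 8661, 6445 and 7819.7 at 4 h (1.59 ± 0.13, adjusted p = 0.00024). The helicase SEN1 rose by 0.90, NRD1 by 0.83, the exonuclease XRN1 by 0.71 and the surveillance factor NMD2 by 0.56.

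Many of these were long genes, and gene length moved with the result. Of 196 genes over 4000 bp, 53.6% rose and 1 gene fell, with a median log2 difference of 0.53. Of 847 genes up to 500 bp, 61 rose and 28 fell (median 0.12). The middle of 5 length classes had a median of -0.07, with 140 rises and 165 falls in 2211 genes. PRP8 is 7242 bp long, BRR2 6492 bp, SEN1 6696 bp and CDC39 6327 bp. With the trend over length taken out, 36 of the 196 long genes rose and 8 fell. Without 8 h replicate 1, 63 of the long genes rose, and without 8 h replicate 2, 62. On that scale PRP8 stood at 0.65 (adjusted p = 0.0176), CDC39 at 1.03 (adjusted p = 0.00042), SEN1 at 0.31 (adjusted p = 0.0479) and BRR2 at 0.28 (adjusted p = 0.0478). UTP20, UTP10, RPO31, ESP1, PRP22 and MET5 passed as deposited and not on that scale, together with CYC7, TIR4 and PHO12.

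**Figure D3:**
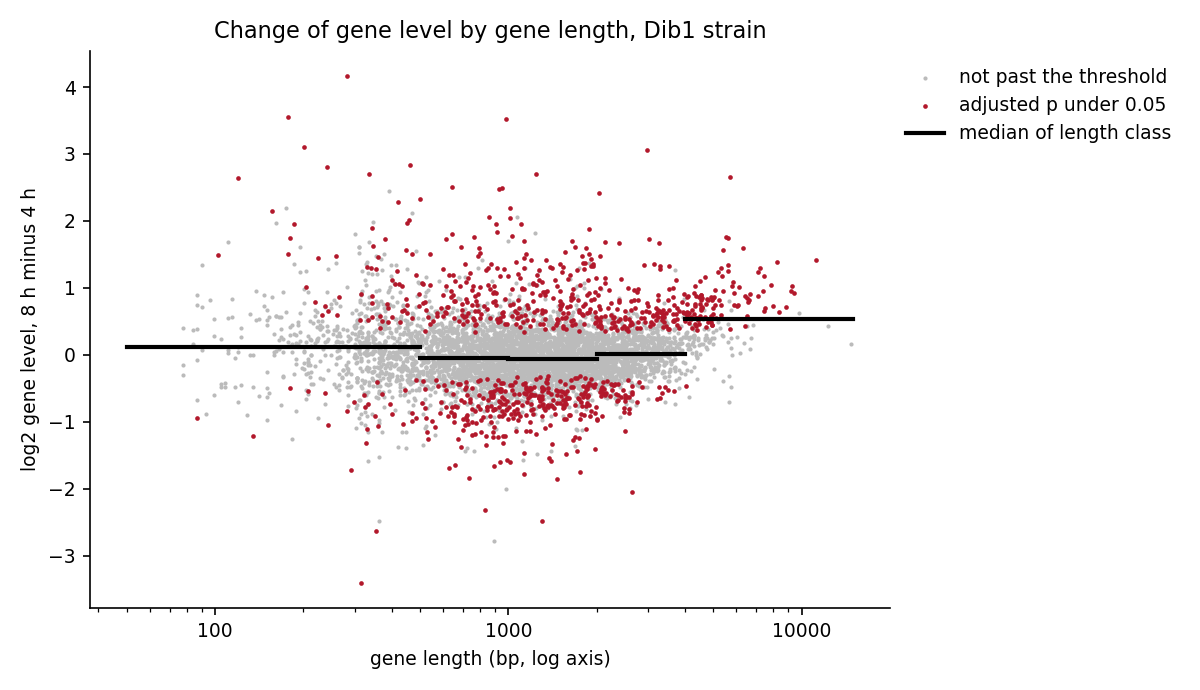
Log2 difference of gene level (8 h minus 4 h) against gene length (bp, log axis) for 5843 genes with an annotated length; red points have a limma adjusted p under 0.05 and black lines are medians of 5 length classes. The median is 0.53 over 4000 bp and lies near 0 in the 3 middle classes.

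Most ribosomal protein genes had a log2 difference below 0, in 83 of 89 with an intron and 45 of 49 without, and a part of them passed the test. Of 89 with an intron, 1 rose and 31 fell (median -0.59), and of 49 without an intron, 0 rose and 8 fell (median -0.50). Other intron hosts did not move as a body, with 17 rises and 15 falls in 177 (median 0.02), and with 5 and 5 without 8 h replicate 1 or 8 h replicate 2. Gene reads can include intron reads. With intron reads taken out of each host, an alternative chosen after seeing the data, 62 ribosomal protein genes with an intron fell (median -1.08), and 34 of the other hosts fell and 10 rose (median -0.18). SUS1, of the SAGA and mRNA export complexes and a host of a pair of introns, turned round: its gene reads rose by 0.67 ± 0.19 (adjusted p = 0.0393), and its gene reads without intron reads stood at -0.78 (adjusted p = 0.0795). The counts of the ribosomal protein genes rest on single libraries. Without 4 h replicate 1, 63 with an intron and 38 without fell. Without 8 h replicate 2 these were 10 and 2, and without 8 h replicate 1 they were 12 and 2. Without 4 h replicate 3 they were 16 and 3, and without 8 h replicate 3 they were 15 and 4. Without 4 h replicate 2, 22 and 5 fell. Ribosome biogenesis genes, which usually move with them, had 2 rises and 1 fall in 70 (median -0.13).

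Further falls were found in amino acid synthesis, mating and the cell cycle. Over all genes 5.79% fell, the share to set beside the list counts here and in the next paragraphs. Of 46 amino acid genes under the activator Gcn4, 10 fell and 1 rose (median -0.20). HIS1, the first enzyme of histidine synthesis, had 2745, 2923 and 3824 counts at 8 h, against 9682, 9142 and 10942 at 4 h (-1.66 ± 0.14, adjusted p = 0.00024), and BAT1 fell by 1.13. SER3, of serine synthesis, rose by 1.29. The list gave 17 falls without 4 h replicate 1, 6 without 4 h replicate 2, and 4 without 4 h replicate 3, 8 h replicate 1 or 8 h replicate 2.

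Of 25 pheromone response genes, 9 fell and 2 rose (median -0.40). The falls took in the G protein subunits GPA1 (-0.68) and STE4 (-0.64), the kinase FUS3 (-0.70), the transcription factor STE12 (-0.56) and the cell fusion gene FUS1, with 465, 461 and 655 counts at 8 h, against 779, 956 and 994 at 4 h (-0.80 ± 0.17, adjusted p = 0.0146). The scaffold gene STE5 rose by 0.40 and PRM4 by 1.04. Without 8 h replicate 1 or 8 h replicate 2, 3 of the list fell. The a-cell genes BAR1 and ASG7 fell by 0.88 and 1.68, while MFA1, MFA2 and STE2 did not pass. Of the alpha-cell genes, SAG1 rose by 0.84 and STE3 fell by 1.33 (limma adjusted p = 0.00947 and 0.00208). STE3 averaged 66.6 counts at 8 h and 169 at 4 h. MF(ALPHA)1 and MF(ALPHA)2 did not pass.

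Of 30 cyclins and cell cycle switches, 6 fell and 3 rose (median -0.18). CLB5, an S-phase cyclin, had 602, 635 and 556 counts at 8 h, against 999.8, 955 and 1076 at 4 h (-0.76 ± 0.15, adjusted p = 0.00979), and the G1 transcription factor SWI4 fell by 0.65. The list had 1 fall and 1 rise without 8 h replicate 1 or 8 h replicate 2, 2 falls without 4 h replicate 3, and 3 falls without 8 h replicate 3. PCL1, a cyclin partner of Pho85, had 7261, 7416 and 10368 at 8 h, against 2154, 3625 and 5104 at 4 h (1.27 ± 0.27, adjusted p = 0.0146). Of 16 tubulin and tubulin-folding genes, 4 fell and 0 rose (median -0.35), among them the folding factor CIN2 (-1.15) and the microtubule-end protein BIM1 (-0.73). Without 8 h replicate 1 or 8 h replicate 2 this list had 0 falls under limma.

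The largest falls came from varied genes. PHM6, a phosphate-regulated gene, had 109.6, 133 and 459.5 counts at 8 h, against 3071, 1258 and 2073 at 4 h (-3.40 ± 0.53, adjusted p = 0.00339). With PHO12, VTC3 and VTC2, 4 of 20 phosphate regulon genes fell and 1, PHM7, rose (median -0.47). With the replicate number as a block, 8 of these fell and 2 rose. The falls numbered 8 without 4 h replicate 1 and 2 without 8 h replicate 1. OPT2, an oligopeptide transporter, had 92.4, 105.4 and 159 at 8 h, against 384, 542 and 543 at 4 h (-2.05 ± 0.23, adjusted p = 0.00093). BIO2, biotin synthase, had 583, 574 and 727 at 8 h, against 2327, 1979 and 2143 at 4 h (-1.78 ± 0.17, adjusted p = 0.00029). In these 3 genes all 8 h libraries were below all 4 h libraries. Their galactose means were 1284, 3962 and 1702, and of these only the OPT2 mean lay above its 4 h libraries. HES1, TIR4 and HEM13 owed much to 4 h replicate 3, with 2468, 6419 and 14029 counts there, against 425 to 529, 1315 to 1794 and 4682 to 6663 in the other 4 h libraries. HO, IZH4 and SPS4 completed the list, at -1.75, -1.61 and -1.59.

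**Figure D4:**
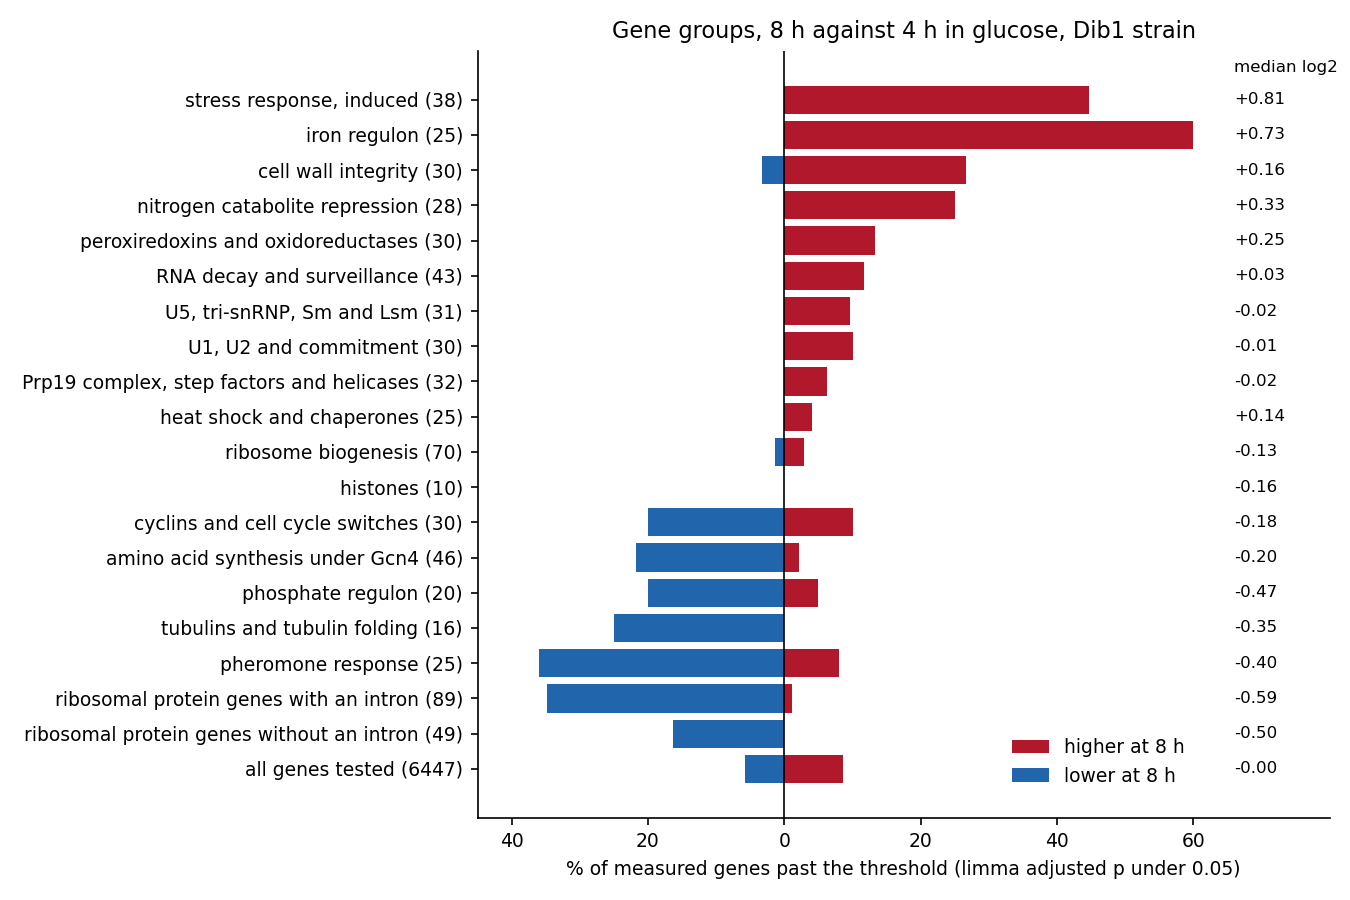
Share of the measured genes of each list that were higher (right) or lower (left) at 8 h than at 4 h with a limma adjusted p under 0.05; the number tested is in brackets and the median log2 difference at the right. The iron regulon (15 of 25) and stress-induced genes (17 of 38) have the longest bars to the right, beside 8.62% over all genes.

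Lists of carbon metabolism, for which the sugar is the same in both groups, had few calls each way. Over all genes 8.62% rose and 5.79% fell. Of 17 TCA cycle genes, 3 rose and 2 fell (median 0.16). CIT2, a citrate synthase, rose by 1.31, IDH1 and IDH2, the subunits of isocitrate dehydrogenase, by 1.21 and 0.99, and LSC2, a subunit of succinyl-CoA ligase, fell by 0.69 (limma adjusted p = 0.0182). Without 8 h replicate 1 this list had 1 rise and 0 falls, without 8 h replicate 2 it had 1 and 1, and without 4 h replicate 2 it had 7 and 2. Of 12 GAL regulon genes, 0 rose and GAL4 fell (-0.58, adjusted p = 0.0430). Of 30 glucose-repressed and gluconeogenic genes, 3 rose and 1 fell (median 0.001), and of 21 glycolysis and ethanol genes 1 did in each direction (median 0.12). HXT1, a transporter induced by high glucose, had 2849, 2964 and 2009 counts at 8 h, against 5419.6, 8086 and 7635 at 4 h (-1.43 ± 0.37, adjusted p = 0.0323). HXT5, a transporter of slow-growing cells, had 250.5, 218 and 264 at 8 h, against 142, 88.2 and 51.8 at 4 h (1.48 ± 0.34, adjusted p = 0.0193). Of the mitochondrial genome list, 0 of 16 genes were measured.

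The same interval was also sampled in the Snu114 strain, which differs in its driven gene and in the mating-type transcripts given above. The median ratio of introns, as medians of host means, was 33.6% at 8 h and 18.9% at 4 h in the Dib1 strain, and 17.7% at 8 h and 3.81% at 4 h in the Snu114 strain. Fitted together, the log2 change of the ratio differed between the strains in 145 of 250 introns (58%). It was smaller in the Dib1 strain in 144 (57.6%) and larger in 1 (0.4%), HMRA1, an a-cell gene. From a lower 4 h ratio, the same step in percentage points is a larger log2 change. The median difference of the log2 changes was -1.01. For gene levels the change differed in 40 of 6418 genes (0.623%), 29 (0.452%) higher and 11 (0.171%) lower in the Dib1 strain. They held 0 of 25 iron regulon genes and 1 of 38 stress-induced genes. These gene calls changed when a replicate number was left out of every group, which leaves fewer libraries in each. Without replicate 2 of every group 0 passed under limma, without replicate 1 there were 3, and without replicate 3 there were 74. Single libraries were not left out for this difference.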

How the data were processed

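The data are gene and intron tables of polyadenylated RNA, made per the labels with the TruSeq Stranded mRNA kit. Per the submitters' processing notes, which give no versions, Trimmomatic, STAR, HTSeq and DESeq2 were used with the sacCer3 genome. The strand setting of the counting is not given in the sources used here, so overlapping and antisense genes cannot be told apart with certainty. The values are signal, read counts that the authors divided by size factors before they deposited them. The authors also deposited log2 fold changes and p-values, which are quoted only as their table's. All values came out as whole multiples of 1 read (tolerance 0.001 reads), which gave reads and size factors per library, and intron reads were divided by the gene table's size factors.

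Levels were log2(value + 1). The ratio of intron to gene reads used a pseudocount of 0.5, with a mean of at least 5 intron and 20 gene reads. limma-trend (limma 3.58.1, R 4.3.3) was fitted to all 9 libraries of the Dib1 strain, or all 18 for the difference between strains, with Benjamini-Hochberg adjustment over all features and a threshold of 0.05. Fold changes on the log2(value + 1) scale understate the change of low genes. The fits were tested on simulated data. Shares were compared by exact permutation tests, with exact binomial 95% intervals. Length trends were removed by lowess (span 0.5). edgeR 4.0.16, DESeq2 1.42.0, Python 3.11.15, pandas 2.3.3, SciPy 1.17.1 and matplotlib 3.10.9 were also used.

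The members and gene lists were chosen with earlier results of these data known. Genes were named if they were among the 10 largest rises or falls past the threshold with a mean of at least 10 CPM and groups that did not overlap, among the leading members of a list, or preset (DIB1, GAL1, SNU114, PRP8, BRR2, PRP6 and PRP31). Introns were named likewise, with ACT1, TEF4, TUB1, TUB3, YRA1, DBP2 and MUD1 preset and the 3 nearest no change among those with at least 100 reads. Other names were chosen after their values were seen. Replicate numbers come from the labels. Same-numbered gene libraries at 8 h and 4 h deviated together in all 3 pairs (correlations 0.11, 0.38 and 0.47, each over 0.1). The main gene fit had no replicate block, so its counts and p-values are unpaired. The fit with the replicate number as a block is given as an alternative. The pairing is not clear-cut, since 8 h replicate 1 had a correlation of 0.44 with 4 h replicate 2.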

Additional observations from a re-analysis of the deposited data

Results flagged for a closer look

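The change between 8 h and 4 h differed between the Dib1 and Snu114 strains by a test of the difference itself (limma, adjusted p under 0.05) for the introns and genes given here. The strains also differ in their mating-type transcripts, and strain and mating type cannot be told apart. On the log2 scale, the intron ratio rose less in the Dib1 strain in 144 introns.

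ACT1 had an intron ratio of 19.7%, 18.5% and 21.95% at 8 h, against 11.1%, 6.41% and 6.92% at 4 h, in the Dib1 strain. In the Snu114 strain it had 5.04%, 5.49% and 10.1% at 8 h, against 0.660%, 0.510% and 0.526% at 4 h. The log2 change in the Dib1 strain minus that in the Snu114 strain was -2.20. Snu114 libraries at 4 h were far below those of the Dib1 strain. In percentage points the mean ACT1 ratio rose more in the Dib1 strain, from 8.15% to 20.1%, against 0.565% to 6.89% in the Snu114 strain. The sign of the ACT1 difference thus depends on the scale, and differences in percentage points were not tested. The difference of log2 changes was -3.03 for TEF4, -2.34 for RPL19B, -2.11 for SAC6, -1.82 for MUD1, -1.52 for RPL33A, -1.41 for PHO85, -1.30 for MMS2 and -1.0 for IWR1.

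For gene levels the difference was above 0 in 29 genes and below 0 in 11. It was 1.85 for SPS100, 1.83 for GSC2, 1.80 for PHM7, 1.65 for RIM4, 1.39 for DUR1,2, 1.32 for SER3, 1.26 for YRA1, 0.89 for CDC39 and 0.56 for RSE1. For ASG7, an a-cell gene, it was -2.36. In the Snu114 strain ASG7 had only 4.11, 4.73 and 11.4 counts at 8 h, against 3.65, 2.61 and 4.28 at 4 h. Its change in that strain therefore rests on few reads.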

How the results depend on the processing

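In the gene comparison, the 6 Dib1 glucose libraries alone gave 474 calls (309 rises and 165 falls) and DESeq2 gave 1419 (672 falls). The replicate block gave 608 falls, and the block with the length trend removed, chosen after seeing the data, 638. Leaving out libraries gave 347 to 1321 calls, with 232 to 717 rises and 113 to 604 falls. Of the 929 genes, 918 were also called by DESeq2, 891 by edgeR and 922 under the block. The block ended the call of CYC7 and made PRP31 pass.

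For intron levels, the authors' intron size factors left 5 calls (3 rises), and leaving out libraries gave 58 to 136 calls (58 to 133 rises). The ratio rose in 137 to 199 introns under all alternatives run, and without 8 h replicate 1 it also fell in 1. Its replicate numbers did not pair the samples (correlations -0.03, 0.19 and 0.53). Without 4 h replicate 1 the ratios of DBP2 and MUD1 passed, and none of the other named ratios changed sides. The block gave 197 ratio calls and 162 level calls. The share of intron reads had an exact permutation p of 0.25 in the paired form. This is the smallest two-sided p that 3 pairs allow, so it cannot show a weaker result.

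The difference between strains in genes gave 1 call above 0 and 0 below with the 12 glucose libraries, a total of 1, and 223 under the replicate block (138 and 85). Without replicate 1 of every group there were 3 (1 and 2), without replicate 2 there were 0 (0 and 0), and without replicate 3 there were 74 (26 and 48). SUS1 gene level stood at -0.78 with intron reads taken out, and GCR1 intron level at -0.084 with the authors' intron size factors. Beyond fewer libraries where some were left out, the cause was not tested. Depth limits introns with few reads.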
